A study of Mus musculus with 48 samples.

Results

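The genes of cholesterol and fatty acid synthesis were followed in mouse lung as 30 genes chosen by symbol, all of which were found among the 47561 genes of the expression table, with 1 row each. They comprise 16 enzymes of the mevalonate and sterol pathway, 3 regulators and 11 genes that make, lengthen or desaturate fatty acids. The table holds 48 lungs, 3 mice in each of 16 groups formed by strain (C3H/hen, here C3H, or C57Bl/6, here C57B), sex, injection and air. Labels, series text and study methods name the C57Bl/6 substrain differently, so it is not given here. The adult mice received a single intraperitoneal injection of saline or of 25 mg/kg ATG (aurothioglucose, a gold compound) and then spent 96 h in room air or in hyperoxia at more than 95% oxygen. The design text of the series names ATG for all mice, so the saline groups rest on the sample labels. RNA came from pieces of whole lung, and values are FPKM, fragments scaled by transcript length and by the mapped fragments of the library, a scale on which levels of different genes can be set side by side. Genes on the sex chromosomes are at 0 in every lung of the table, so sex could not be checked against expression.

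Animal cells build cholesterol from acetyl-CoA through mevalonate, the isoprenoid diphosphates, squalene and lanosterol, and build fatty acids from the same acetyl-CoA through malonyl-CoA. Srebf2 and Srebf1 encode membrane-bound transcription factors that favour the genes of the sterol and the fatty acid branch, respectively. INSIG1 holds their precursors in the endoplasmic reticulum when sterols are plentiful. In the lung both branches serve membranes and the lipid of surfactant, which alveolar type 2 cells make and store.

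The upstream sequence of 6 genes is shown because their expression differed between conditions (Lss, Cyp51, Hsd17b7, Insig1, Fasn) or because it holds the sterol element searched for (Hmgcs1). Each run covers the 220 bases before the start of the gene in RefSeq (build GRCm38.p6), 5′ to 3′ on the strand of the gene. Capitals mark 3 motifs read on either strand, which are the box CCAAT, the E-box CACGTG and the sterol regulatory element core TCACNCCAC.
Hmgcs1, chr13:119690131-119690350, plus strand: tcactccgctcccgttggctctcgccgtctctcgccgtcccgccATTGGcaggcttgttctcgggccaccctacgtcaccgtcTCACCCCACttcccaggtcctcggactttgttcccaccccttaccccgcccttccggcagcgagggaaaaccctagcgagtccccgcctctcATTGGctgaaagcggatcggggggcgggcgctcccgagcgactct
Lss, chr10:76531385-76531604, plus strand: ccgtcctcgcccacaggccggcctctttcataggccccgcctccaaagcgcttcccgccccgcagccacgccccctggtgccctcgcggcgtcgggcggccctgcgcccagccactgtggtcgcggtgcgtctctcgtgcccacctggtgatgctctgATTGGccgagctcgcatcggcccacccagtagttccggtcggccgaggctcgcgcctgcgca
Cyp51, chr5:4104698-4104917, minus strand: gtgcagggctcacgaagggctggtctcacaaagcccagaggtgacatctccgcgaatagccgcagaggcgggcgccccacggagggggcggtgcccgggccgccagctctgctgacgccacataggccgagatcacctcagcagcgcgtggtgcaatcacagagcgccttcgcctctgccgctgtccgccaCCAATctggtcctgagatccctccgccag
Hsd17b7, chr1:169969206-169969425, minus strand: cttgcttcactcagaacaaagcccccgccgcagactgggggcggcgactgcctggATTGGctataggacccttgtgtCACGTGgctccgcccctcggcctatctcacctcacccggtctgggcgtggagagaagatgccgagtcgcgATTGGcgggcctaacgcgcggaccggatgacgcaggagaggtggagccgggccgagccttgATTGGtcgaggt
Insig1, chr5:28071192-28071411, plus strand: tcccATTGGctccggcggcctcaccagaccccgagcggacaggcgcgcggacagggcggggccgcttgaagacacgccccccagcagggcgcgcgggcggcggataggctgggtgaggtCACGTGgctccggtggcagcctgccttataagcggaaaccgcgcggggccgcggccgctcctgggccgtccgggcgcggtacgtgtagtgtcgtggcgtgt
Fasn, chr11:120824548-120824767, minus strand: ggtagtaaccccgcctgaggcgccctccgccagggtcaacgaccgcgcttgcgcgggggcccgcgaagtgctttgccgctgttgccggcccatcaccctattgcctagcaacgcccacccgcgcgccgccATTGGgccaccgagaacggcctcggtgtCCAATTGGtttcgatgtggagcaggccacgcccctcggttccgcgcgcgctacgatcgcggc
RefSeq promoter windows, 250 bases before to 50 bases after the start, were present for 24 of the 30 genes. Windows were not used for Fdps, Fdft1, Sqle, Scd1, Scd2 and Fads1. CCAAT was found in 20 of the 24 genes and in 12 of 13 sterol enzymes, against 41.7% of the 10597 genes with a window that were expressed in the saline lungs. The sterol element core occurred in Hmgcs1 alone, 137 bases before the start, against 1.36% of expressed genes. The looser form TCACNCNAC, which contains the core, was also found in Hmgcs1 alone, against 3.18% of expressed genes. The E-box was found in Hsd17b7, Sc5d, Dhcr7, Insig1 and Elovl5, 5 of 24 genes, against 11.2%. The GC box GGGCGG was found in 18 of 24 genes, against 65.7%, and thus in 75.0% of them. The starts are those of RefSeq and can differ from the gene coordinates given with the results, which are of the Ensembl annotation. These matches describe letters in a window and not binding.

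Libraries were compared before the members. In the 12 saline lungs in room air, the first principal component held 35.7% of the variance and set mice 1 and 3 of C3HM apart, at 66.3 and 65.2 against 18.8 for mouse 2 of the same group and -33.5 to 17.1 for the other mice. The FPKM of all genes summed to 510933 to 748290 per lung. Of that sum, the club cell gene Scgb1a1 took 10.4 to 30.2% in room air lungs and 1.20 to 7.17% in hyperoxia lungs, so its share differed with the air. Mouse 1 had both the highest sum and the highest share. Read depth is unknown because the files give no counts. Several fold changes are therefore also given without mice 1 and 3. That fit keeps 1 mouse in C3HM, so it is read by its log2 fold changes only.

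At baseline, in the 12 saline lungs in room air, the 7 most abundant members were fatty acid genes, and the other 4 fatty acid genes (Fads2, Acaca, Acacb and Elovl6) lay among or below the sterol enzymes. Scd1, which puts the first double bond into saturated fatty acids, had a mean FPKM of 309 ± 131 (SD, n = 12), followed by Elovl1, which lengthens saturated fatty acids, at 247 ± 91.5. Scd2 came next at 119 ± 31.5 and Elovl5, an elongase of polyunsaturated fatty acids, at 104 ± 15.4, and these 2 means differ by less than the SD of Scd2. Among sterol enzymes, Hmgcs1, which makes HMG-CoA, was the highest at 36.0 ± 3.74, and the regulators Srebf1 (30.2 ± 5.48) and Srebf2 (29.4 ± 7.42) were close to each other. The last 4 places in the order were held by Lss at 3.81 ± 1.42, Hsd17b7 at 3.25 ± 1.22, Acacb at 2.33 ± 0.966 and Elovl6 at 1.10 ± 0.427. All 30 members passed the filter of an FPKM of at least 1 in 3 mice in every comparison.

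**Figure D1:**
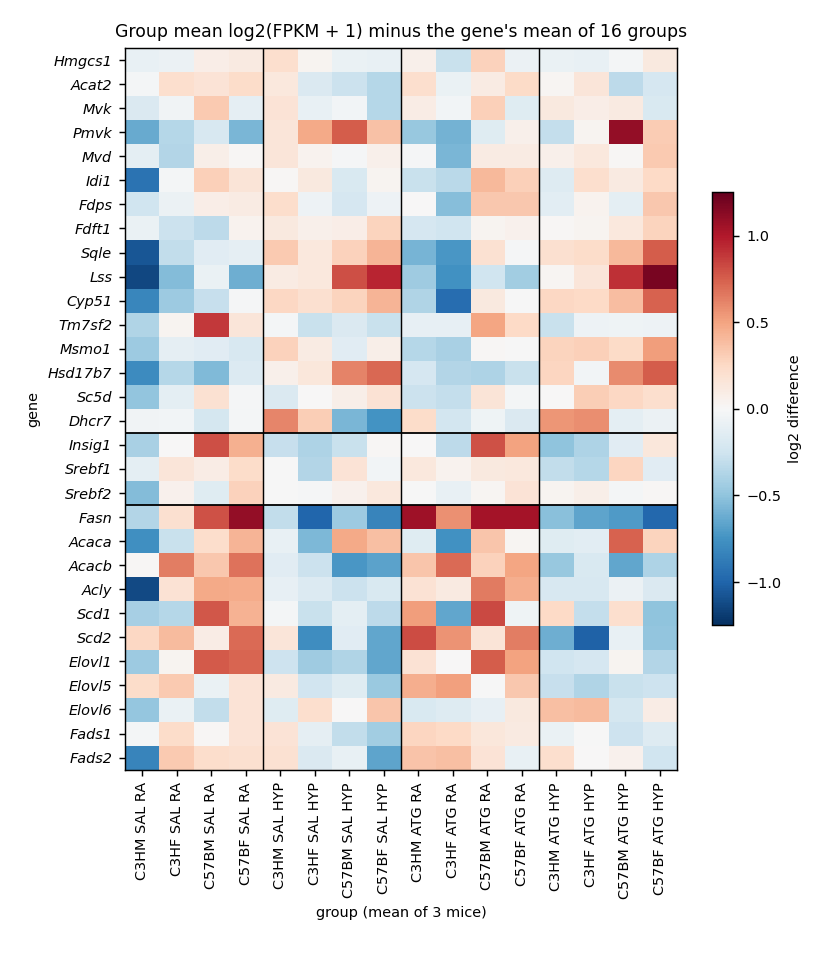
Group means of log2(FPKM + 1) for the 30 genes (rows, in pathway order) in the 16 groups (columns, 3 mice each, SAL saline, ATG aurothioglucose, RA room air, HYP hyperoxia), each as the difference from the mean of the 16 groups for that gene (colour, log2). Lss, Sqle, Cyp51, Pmvk and Hsd17b7 are red in most hyperoxia columns, and Fasn, Acacb and Scd2 are blue in most of them.

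The question of what hyperoxia changes was asked first. In the 24 saline lungs, 7 of 16 sterol enzymes rose and 2 fell in hyperoxia, whereas 1 of 11 fatty acid genes rose and 6 fell. The rises were led by Lss, 2.13-fold, and the falls by Fasn, which was 2.11-fold lower (both on the FPKM + 1 scale). Of the 3 regulators, Insig1 fell, and Srebf1 and Srebf2 did not pass the test. In all, 8 members rose and 9 fell at an adjusted p under 0.05 (limma, Benjamini-Hochberg over all genes tested), which is 17 of 30 where 31.8% of the 16321 genes tested rose and 28.3% fell, so the share of members that changed is close to that of all genes. The median log2 fold change was 0.15 for the sterol enzymes and -0.30 for the fatty acid genes, against 0.01 for all genes. Without mice 1 and 3 of C3HM the median log2 fold change of the 30 members was -0.094, against -0.007 with them.

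Lss encodes lanosterol synthase, which closes squalene epoxide into the first sterol (chromosome 10, 76531588 to 76557138, plus strand, GRCm38). In saline C3H mice its FPKM lay between 1.38 and 4.33 in room air (median 2.92) and between 4.92 and 9.50 in hyperoxia (median 5.85). In saline C57B mice it lay between 2.96 and 6.35 in room air (median 4.37) and between 7.31 and 18.3 in hyperoxia (median 11.6). Every lung in hyperoxia was above every lung in room air of its strain (log2 fold change 1.09, SE 0.15, adjusted p = 2.2e-06). The same held in the ATG mice. There C3H lungs lay between 2.26 and 4.71 in room air (median 3.72) and between 5.39 and 7.26 in hyperoxia (median 6.44). C57B lungs lay between 2.42 and 7.06 in room air (median 5.02) and between 10.9 and 16.0 in hyperoxia (median 13.2). Such a rise without overlap was seen in 10.8% of all genes in saline C3H mice and 17.0% in saline C57B mice. In ATG mice the shares were 17.4% in C3H and 19.8% in C57B.

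Cyp51, the lanosterol demethylase (chromosome 5, 4081145 to 4104746, minus strand), lay between 5.33 and 9.41 in room air (median 7.44) and between 11.4 and 17.1 in hyperoxia (median 15.0) in saline C3H mice. In their C57B counterparts it lay between 8.33 and 13.1 in room air (median 11.5) and between 12.4 and 20.3 in hyperoxia (median 15.8). The air groups did not overlap in C3H, and in C57B they overlapped at the edge (log2 fold change 0.68, SE 0.09, adjusted p = 3.0e-06). Sqle, the squalene epoxidase (chromosome 15, 59315077 to 59331192, plus strand), lay between 5.69 and 16.0 in room air (median 11.8) and between 15.1 and 26.5 in hyperoxia (median 19.7) in saline C3H mice. Saline C57B lungs lay between 13.9 and 16.8 in room air (median 14.8) and between 12.5 and 31.7 in hyperoxia (median 22.9), and the lowest lung in hyperoxia was below the lowest in room air (log2 fold change 0.70, SE 0.14, adjusted p = 0.00018).

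Hsd17b7, a reductase of sterol ketones (chromosome 1, 169949535 to 169969241, minus strand), lay between 1.13 and 4.61 in room air (median 2.96) and between 4.16 and 6.49 in hyperoxia (median 4.65) in saline C3H mice. In saline C57B mice it lay between 2.48 and 5.41 in room air (median 3.04) and between 6.68 and 10.3 in hyperoxia (median 7.82), with no overlap (log2 fold change 0.85, SE 0.14, adjusted p = 2.5e-05). Pmvk, the phosphomevalonate kinase (chromosome 3, 89454541 to 89469013, plus strand), lay between 11.2 and 23.0 in room air (median 14.9) and between 20.2 and 33.2 in hyperoxia (median 27.7) in saline C3H mice. In the C57B counterparts it lay between 10.7 and 20.0 in room air (median 18.1) and between 20.7 and 78.3 in hyperoxia (median 29.4), with mouse 21 far above the others (log2 fold change 0.87, SE 0.17, adjusted p = 0.00013). The rise of Pmvk in the whole set was called with each mouse left out in turn. Smaller rises were called for Msmo1, a methylsterol oxidase, and Fdft1, squalene synthase, at log2 fold changes of 0.31 and 0.29. Of the exon bases of Fdft1, 18.3% are also exon of Ctsb on the other strand, so reads of Ctsb could have been counted for it. Gm6781 holds 14.6% of the 30-base sequences of Fdft1. The call of Msmo1 had an adjusted p of 0.049 and was lost in 15 of 24 fits that left out 1 mouse.

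The sterol enzymes that fell were Tm7sf2, a sterol reductase, and Acat2, the thiolase that opens the pathway, at log2 fold changes of -0.37 and -0.32. Of the 30-base sequences of Acat2 transcripts, 44.0% also occur in Acat3, so its reads could have been divided between the 2 genes. The fall of Tm7sf2 was lost in 11 of 24 fits that left out 1 mouse, and 12.1% of its exon bases are also exon of Vps51. The other 7 sterol enzymes did not pass the test. Hmgcs1 at 0.01 (95% interval -0.18 to 0.19) and Fdps, which makes farnesyl diphosphate, at 0.01 (-0.23 to 0.24) were nearest to 0. Fdps shares 28.0% of its 30-base sequences with Gm43738 and other loci. Mvk, Mvd, Idi1, Sc5d and Dhcr7 lay between -0.07 and 0.16. Idi1 shares 18.9% of its 30-base sequences with Gm13502 and other loci.

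Insig1 (chromosome 5, 28071363 to 28078662, plus strand) was the regulator that fell. In saline C57B mice its FPKM lay between 27.3 and 40.4 in room air (median 33.7) and between 15.3 and 24.6 in hyperoxia (median 19.1), with no overlap. In saline C3H mice it lay between 11.0 and 24.8 in room air (median 21.0) and between 12.7 and 20.8 in hyperoxia (median 17.4), with overlap. Its log2 fold change over both strains was -0.45 (SE 0.11, adjusted p = 0.0013). Srebf2 stood at 0.13 (95% interval -0.05 to 0.30) and Srebf1 at -0.15 (-0.34 to 0.05). Srebf1 passed in limma under median ratio scaling (-0.21, adjusted p = 0.030) and quantile normalization (-0.28, adjusted p = 0.0093). Without mice 1 and 3 of C3HM it stood at -0.25.

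Fasn, the fatty acid synthase (chromosome 11, 120805846 to 120824547, minus strand), fell most among the members on the FPKM + 1 scale. Its FPKM in saline C57B mice lay between 66.2 and 121 in room air (median 90.0) and between 21.3 and 36.6 in hyperoxia (median 30.6). In saline C3H mice it lay between 17.5 and 64.2 in room air (median 50.6) and between 18.9 and 52.1 in hyperoxia (median 26.4). Every C57B lung in hyperoxia was below every C57B lung in room air, whereas the C3H ranges overlapped (log2 fold change -1.07, SE 0.16, adjusted p = 1.2e-05). Acacb, the acetyl-CoA carboxylase of the mitochondrial surface whose malonyl-CoA restrains fatty acid oxidation, lay between 1.71 and 4.01 in room air (median 2.20) and between 0.242 and 0.904 in hyperoxia (median 0.464) in saline C57B mice and lay between 0.868 and 3.79 in room air (median 2.29) and between 0.869 and 1.42 in hyperoxia (median 1.06) in saline C3H mice (log2 fold change -0.86, SE 0.13, adjusted p = 8.3e-06). Mean FPKM of Acacb went from 2.50 to 0.499 in saline C57B mice and from 2.17 to 1.10 in saline C3H mice. That of Fasn went from 92.3 to 29.9 and from 46.9 to 30.7, so Acacb fell more in proportion before 1 was added. Acaca, the cytosolic carboxylase that feeds synthesis, did not pass the test at 0.15 (95% interval -0.22 to 0.52). Of its 30-base sequences, 33.5% also occur in Gm5182 and other loci.

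Elovl1 (chromosome 4, 118428093 to 118432953, plus strand) lay between 258 and 367 in room air (median 348) and between 102 and 172 in hyperoxia (median 131) in saline C57B mice and lay between 85.8 and 211 in room air (median 183) and between 110.2 and 202 in hyperoxia (median 150.2) in saline C3H mice (log2 fold change -0.70, SE 0.12, adjusted p = 5.6e-05). Again the C57B lungs separated by air and the C3H lungs did not. Scd2, a desaturase, lay between 86.8 and 177 in room air (median 116) and between 39.2 and 118 in hyperoxia (median 68.8) in saline C57B mice and lay between 68.6 and 144 in room air (median 128) and between 19.9 and 123 in hyperoxia (median 87.0) in saline C3H mice (log2 fold change -0.72, SE 0.23, adjusted p = 0.012). Elovl5 and the polyunsaturated fatty acid desaturase Fads1 fell by 0.35 and 0.27 on the log2 scale. Elovl6, which lengthens palmitate, rose by 0.28 from the lowest level of any member, and it stood at 0.22 without mice 1 and 3 of C3HM. Acly, Scd1 and Fads2 did not pass the test over both strains. Without mice 1 and 3 of C3HM, Acly and Scd1 both stood at -0.46. Scd1 passed in limma under quantile normalization (-0.50, adjusted p = 0.028).

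**Figure D2:**
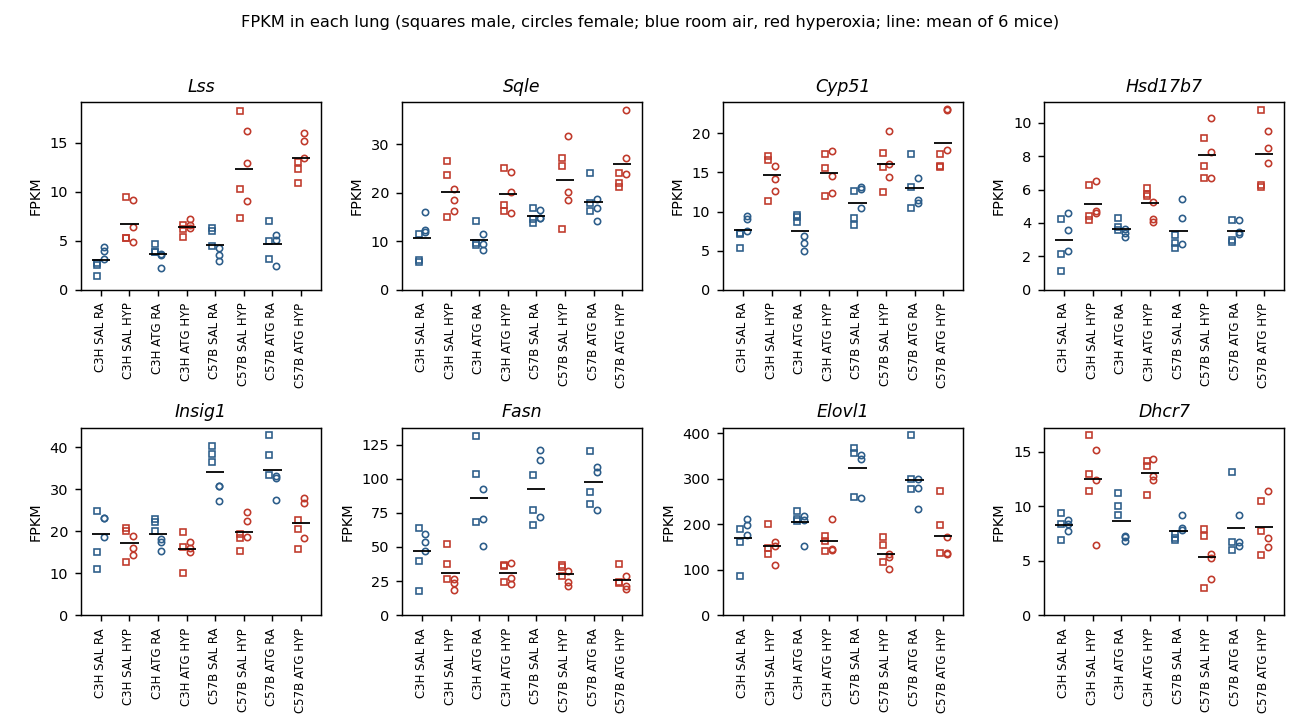
FPKM in each of the 48 lungs for 8 genes (y axis, from 0), by strain, injection and air (x axis, SAL saline, ATG aurothioglucose, RA room air, HYP hyperoxia). Points are mice, squares male and circles female, and lines are means of 6 mice. The hyperoxia points of Lss lie above the room air points within each strain and injection, and those of Fasn lie below them except in saline C3H mice.

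Whether the same genes moved in other mice was asked in the 24 ATG mice, none of which is among the saline mice. There 11 members rose and 10 fell, where 35.8% of 16206 genes rose and 26% fell. All 8 members that rose in saline mice rose again in ATG mice, and 8 of the 9 that fell fell again, Tm7sf2 being the exception (log2 fold change -0.25, adjusted p = 0.076). Over the 15907 genes tested in both sets, 86.3% of the rises and 75.2% of the falls in saline mice were called in the same direction in ATG mice. By role, 10 sterol enzymes rose and 1 fell, and 1 fatty acid gene rose and 7 fell. The sterol enzymes added by the ATG mice were Mvd, Sc5d and Dhcr7, which rose by 0.23 to 0.30 on the log2 scale. Srebf1 and Acly fell in these mice, at -0.24 and -0.51.

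The leading sterol enzymes may be set beside their saline values. Lss had a log2 fold change of 1.04 in ATG mice, Cyp51 of 0.71 and Sqle of 0.68. Fasn fell, with log2 fold change -1.65, SE 0.13, adjusted p = 1.4e-09. C3H lungs lay between 50.5 and 132 in room air (median 81.4) and between 22.7 and 38.1 in hyperoxia (median 31.8). They did not overlap, which was so for 9.28% of all genes in this direction. C57B lungs lay between 77.1 and 120.5 in room air (median 97.7) and between 19.6 and 37.3 in hyperoxia (median 24.1) for the same gene. Scd2 likewise stood at -1.10. Whether the injections differed was tested as the interaction of ATG and air, given with the ATG results, in which no member passed.

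**Figure D3:**
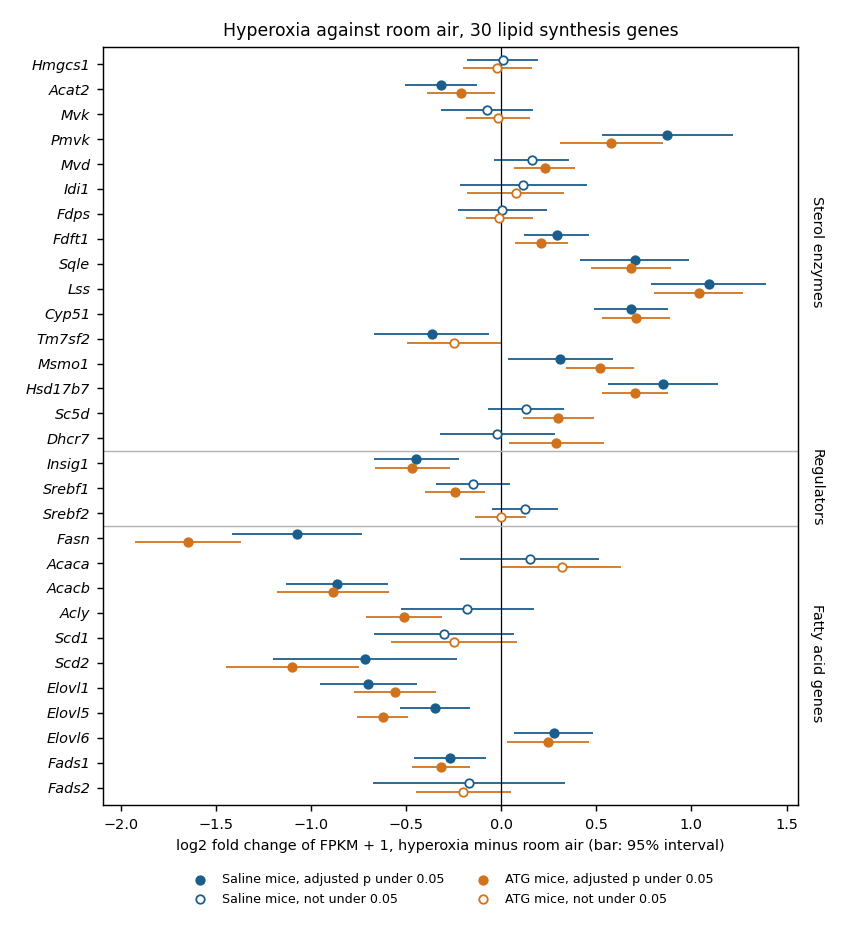
Log2 fold change of FPKM + 1, hyperoxia minus room air (x axis), for the 30 genes (y axis) in the 24 saline mice (blue) and the 24 ATG mice (orange), with 95% intervals as bars and filled points for an adjusted p under 0.05. Sterol enzymes from Lss to Hsd17b7 lie mostly to the right of 0 and fatty acid genes mostly to the left in both sets.

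Neighbouring pathways were read through 4 further lists. Of 9 genes of the isoprenoid branches, which lead from farnesyl diphosphate to ubiquinone, dolichol and prenylated proteins, 5 rose and none fell in saline mice (Pdss1 0.96, Nus1 0.96, Fntb 0.43, Icmt 0.41 and Ggps1 0.36 on the log2 scale). Of 14 genes of fatty acid oxidation, 6 rose and 1 fell, with Pdk4 1.58 among the rises and Acadm -0.58 the fall. Of 16 genes that sense, take up, store or export sterols, 6 rose and 7 fell. Ch25h, which makes 25-hydroxycholesterol, rose by 3.35, while the sterol 27-hydroxylase Cyp27a1 -1.35, the exporters Abca1 -0.50 and Abcg1 -0.56 and the sterol carrier Stard4 -0.65 fell. Of 20 tested genes that partner fatty acid synthesis or assemble lipids, out of 27, 7 rose and 7 fell, with Thrsp -1.58 and the surfactant lipid enzyme Lpcat1 -1.41 the deepest falls and Fads3 0.70 the largest rise. The medians were 0.36, 0.20, -0.03 and 0.11 in the order given, against 0.01 for all genes.

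Markers of cell types moved with the air. Of 8 markers of alveolar type 2 cells, 7 fell and 1 rose in saline mice. Their summed FPKM ran from 35450 to 50514 in C57B and 26358 to 40530 in C3H in room air to 7190 to 12706 and 6177 to 22531 in hyperoxia. In room air that sum was mostly Sftpc, with a median of 32771 beside a median sum of 41515 in C57B. In C3H the Sftpc median was 25256 beside a median sum of 29378. All 3 club cell markers fell (median log2 fold change -1.63) and all 4 neutrophil markers rose (1.52). The median neutrophil sum went from 451 to 3035 in saline C57B lungs, where hyperoxia lungs ran from 158 to 4825. In saline C3H lungs it went from 183 to 199, with the highest hyperoxia lung at 6206. All 3 B cell markers (-1.30), all 3 T cell markers (-1.16), all 3 markers of proliferating cells (-0.51), 3 of 4 of cardiac muscle (-1.98), 3 of 5 of alveolar type 1 cells (-0.60) and 2 of 3 of ciliated cells (-0.44) fell. Of 6 alveolar macrophage markers, 3 rose and 3 fell, and 1 endothelial and 1 fibroblast marker rose. Of 7 adipocyte markers, 6 were tested, of which 1 rose and 1 fell, with sums from 27.6 to 107 in C57B and 20.8 to 184 in C3H in room air to 26.9 to 110.3 and 24.1 to 325 in hyperoxia. Their part in the changes of the members was not tested. In pieces of whole lung, fewer cells of a type and less RNA per cell cannot be told apart.

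The strains were compared in room air first. At baseline 7 members were lower in C3H than in C57B and none was higher, where 3.92% of 15546 genes were higher and 7.87% lower. They were Fasn, Scd1, Elovl1, Insig1, Tm7sf2, Sqle and Cyp51, between 1.40-fold and 2.04-fold lower on the FPKM + 1 scale. Under median ratio scaling, 1 member was higher. Scaling also moved the split of all calls, from 33.2% higher to 48% under median ratio scaling and 51.2% under quantile normalization, and the median of all genes from -0.10 to -0.0046 and 0.02.

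Elovl1 was between 85.8 and 211 (median 183) in saline C3H lungs and between 258 and 367 (median 348) in C57B lungs (log2 fold change -0.96, SE 0.18, adjusted p = 0.0048). Insig1 was between 11.0 and 24.8 (median 21.0) in C3H and between 27.3 and 40.4 (median 33.7) in C57B (log2 fold change -0.82, SE 0.16, adjusted p = 0.0052). Fasn was between 17.5 and 64.2 (median 50.6) in C3H and between 66.2 and 121 (median 90.0) in C57B (log2 fold change -1.03, SE 0.26, adjusted p = 0.024). For these 3 genes the strains did not overlap, which was so for 3.85% of the 15546 genes in this direction. Without overlap the exact permutation test of 6 mice against 6 always gives its smallest p, 0.00216 unadjusted. That p therefore adds nothing to the lack of overlap. Scd1 was between 138 and 311 (median 178) in C3H and between 243 and 504 (median 427) in C57B, with overlap. Without mice 1 and 3 of C3HM, Elovl1 stood at -0.73, Insig1 at -0.52 and Fasn at -0.61. Scd1 stood at -0.66, Tm7sf2 at -0.48, Cyp51 at -0.41 and Sqle at -0.27, the last against -0.56 with them. The size of these strain differences thus depends on those mice.

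In the 12 ATG mice in room air, which the baseline comparison does not use, 13 members were lower in C3H and none was higher, where 8% of 15374 genes were higher and 10.3% lower. Of the 7 baseline calls, 5 met again, namely Cyp51, Elovl1, Insig1, Sqle and Tm7sf2. Over all genes tested in both sets, 67.7% of the lower calls at baseline were called again. Fasn (-0.22, 95% interval -0.63 to 0.18) and Scd1 (-0.45, -0.91 to 0.01) did not pass in the ATG mice.

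The ATG mice placed 10 of 16 sterol enzymes lower in C3H. Insig1 was lower as well, with log2 fold change -0.81, SE 0.09, adjusted p = 6.0e-05. Its lungs lay between 15.2 and 22.9 (median 19.2) in C3H and between 27.5 and 43.0 (median 33.4) in C57B. Sqle was between 8.30 and 14.2 (median 9.58) in C3H and between 14.3 and 24.2 (median 17.4) in C57B (log2 fold change -0.74, SE 0.14, adjusted p = 0.0027). Cyp51 was between 4.91 and 9.58 (median 7.79) in C3H and between 10.5 and 17.4 (median 12.3) in C57B (log2 fold change -0.72, SE 0.12, adjusted p = 0.002). The other enzymes were Idi1, Fdps, Pmvk, Tm7sf2, Mvd, Msmo1, Sc5d and Fdft1, from -0.66 to -0.27. The fatty acid genes that were lower were Acaca and Elovl1.

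**Figure D4:**
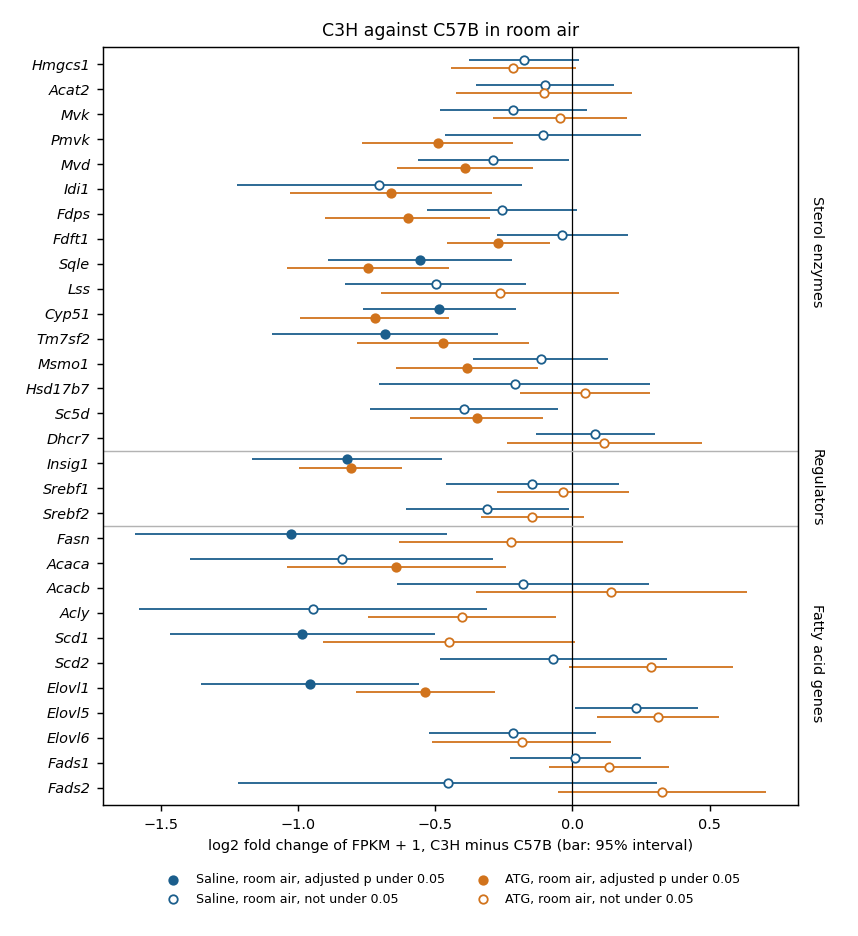
Log2 fold change of FPKM + 1, C3H minus C57B (x axis), for the 30 genes (y axis) in room air in the 12 saline mice (blue) and the 12 ATG mice (orange), with 95% intervals as bars and filled points for an adjusted p under 0.05. Insig1, Elovl1, Sqle, Cyp51 and Tm7sf2 are filled to the left of 0 in both sets.

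In the neighbouring lists, the share of genes that passed between strains was near that of all genes given above. At baseline Insig2, the paralog of Insig1, stood at -0.58, and the lysosomal sterol exporters Npc1 and Npc2 at -0.51 and -0.53, the 3 of 16 sterol sensing and transport genes that passed. Insig2 (-0.35) and Npc2 (-0.47) passed again in ATG mice. Ggps1, which makes geranylgeranyl diphosphate, was lower at -0.67, as were Lpcat1 and the NADPH source Me1 at -0.51 and -0.34. Of 14 oxidation genes, Acadl was lower and Hadhb higher in C3H at baseline, at -0.46 and 0.63. Of the markers, 6 of 8 for alveolar type 2 cells were lower and 4 of 5 for alveolar type 1 cells higher in C3H at baseline. The summed type 2 markers, mostly Sftpc, were 26358 to 40530 in C3H and 35450 to 50514 in C57B. All 4 neutrophil markers (median log2 fold change -1.08), all 3 B cell markers (-1.23) and 2 of 3 T cell markers (-0.46) were lower in C3H. Of 6 alveolar macrophage markers, 1 was higher and 1 lower. No marker of the other 8 lists passed. The part of the markers in the strain difference was not tested.

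Hyperoxia was next read within each strain. In saline C3H mice 6 members rose and 2 fell, where 25.3% of 16321 genes rose and 12.5% fell. In saline C57B mice 6 rose and 12 fell, where 25.5% rose and 30% fell. Lss, Cyp51, Sqle, Hsd17b7 and Pmvk rose in both strains, with log2 fold changes from 0.67 to 0.96 in C3H and from 0.49 to 1.22 in C57B. The fatty acid genes that fell were Acacb and Elovl5 in C3H and 8 of 11 in C57B. There Fasn was 2.99-fold, Elovl1 2.40-fold and Acacb 2.30-fold lower on the FPKM + 1 scale. Read mouse by mouse, 2 members did not overlap upwards in C3H (background 10.8%), 3 upwards in C57B (Hsd17b7, Lss and Pmvk, background 17.0%) and 7 downwards in C57B (Acacb, Acat2, Acly, Elovl1, Fads1, Fasn and Insig1, background 16.8%). Leaving out mice 1 and 3 keeps 1 mouse in C3HM, so only log2 fold changes are given for that fit. In that fit Hsd17b7 stood at 0.33 in C3H, below the 0.67 to 0.96 given above. Pmvk stood at 0.70, Msmo1 at 0.48 and Elovl5 at -0.39 in C3H. Fasn stood at -0.98 there, against -0.57 with mice 1 and 3 included, Insig1 at -0.44 and Fdft1 at 0.40. A scaling by the median ratio raised the falls in C3H to 5 and shifted the share of rises among all calls from 66.9% to 48.3%. Fasn was among these falls in limma (-0.72, adjusted p = 0.013). It also fell in C3H in limma under quantile normalization (-0.75, adjusted p = 0.012).

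The difference between the strains was tested as an interaction, hyperoxia minus room air in C3H less the same in C57B. In saline mice 3 members passed, all positive, where 8.71% of 16321 genes were positive and 2.81% negative. They were Elovl1 (log2 fold change 1.12, SE 0.24, adjusted p = 0.0065), Dhcr7 (log2 fold change 1.04, SE 0.29, adjusted p = 0.025) and Fasn (log2 fold change 1.01, SE 0.33, adjusted p = 0.0498). Dhcr7, the reductase that closes the pathway to cholesterol, lay between 6.94 and 9.38 in room air (median 8.33) and between 6.47 and 16.5 in hyperoxia (median 12.7) in C3H lungs. In C57B lungs it lay between 6.89 and 9.15 in room air (median 7.62) and between 2.49 and 7.89 in hyperoxia (median 5.40), so that Dhcr7 fell in C57B (-0.54, adjusted p = 0.031) and stood at 0.50 in C3H (adjusted p = 0.061). This interaction shares its room air mice with the baseline strain comparison. The call of Fasn was lost in 19 of 24 fits that left out 1 mouse, and without mice 1 and 3 it stood at 0.60. The median of all genes for this interaction was 0.15, and median ratio scaling moved the positive share of all calls from 75.6% to 46.5%.

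In the 24 ATG mice the same interaction named other members. There Elovl6 was positive (0.64) and Lss and Hsd17b7 negative (-0.70 and -0.60), where 8.27% of 16206 genes were positive and 5.04% negative. None of the 3 saline calls passed again, with Dhcr7 at 0.55 (95% interval 0.05 to 1.05), Elovl1 at 0.47 (0.04 to 0.91) and Fasn at 0.47 (-0.09 to 1.03). Over all genes, 37% of the positive and 48.9% of the negative saline calls were called again. In the ATG mice Dhcr7 lay between 6.82 and 11.2 in room air (median 8.25) and between 11.0 and 14.3 in hyperoxia (median 13.2) in C3H lungs and lay between 6.00 and 13.2 in room air (median 6.73) and between 5.48 and 11.4 in hyperoxia (median 7.43) in C57B lungs. Lss and Hsd17b7 rose more in C57B than in C3H lungs in these mice, and in saline mice their interaction stood at -0.26 (95% interval -0.87 to 0.34) and -0.36 (-0.94 to 0.22). Beside these values, 2 of 8 alveolar type 2 markers and all 3 club cell markers were positive in the saline interaction, and 3 of 8 and all 3 in the ATG interaction. All 3 B cell and all 3 T cell markers were positive in the saline interaction, and 2 of 3 T cell markers and all 4 neutrophil markers in the ATG interaction. Their part was not tested.

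**Figure D5:**
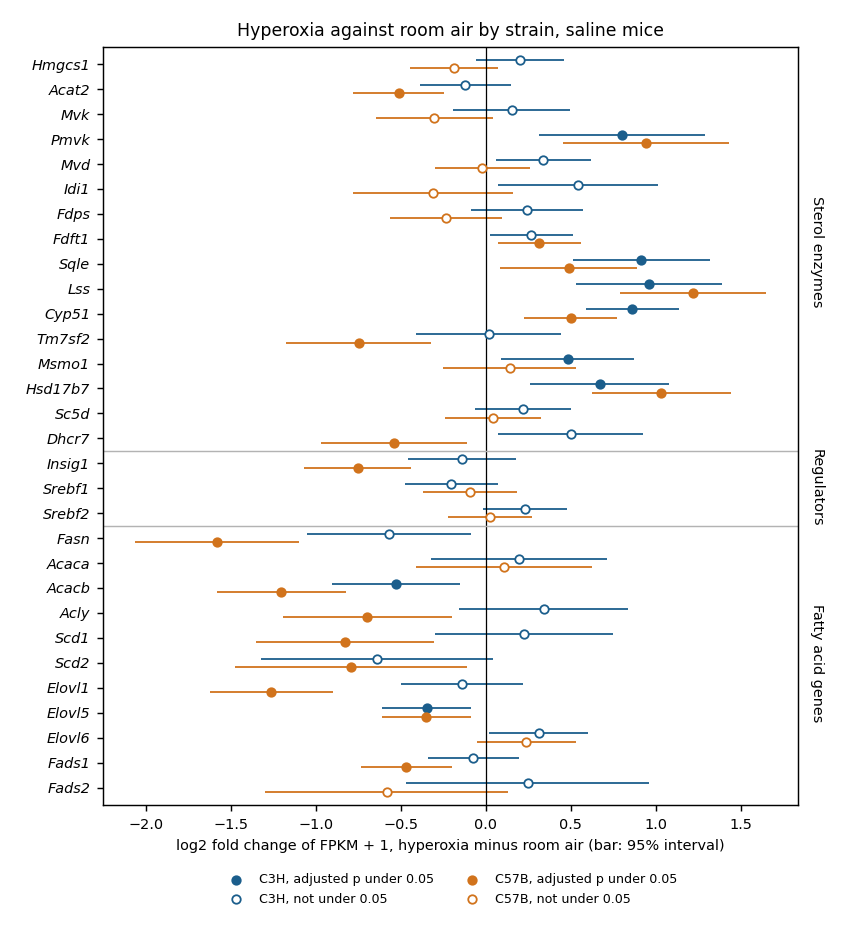
Log2 fold change of FPKM + 1, hyperoxia minus room air (x axis), for the 30 genes (y axis) in saline C3H mice (blue) and saline C57B mice (orange), with 95% intervals as bars and filled points for an adjusted p under 0.05. Fasn, Elovl1, Insig1, Acly and Dhcr7 lie further left in C57B than in C3H, and of these the interaction passed for Fasn, Elovl1 and Dhcr7.

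The sexes were compared at baseline and in their response to hyperoxia. At baseline 0 of 30 passed between males and females in limma, 6 having an unadjusted p under 0.05, where 0.238% of 15546 genes were higher and 0.431% lower in males. Srebf2 came closest, with a male minus female log2 fold change of -0.52 (95% interval -0.82 to -0.22, adjusted p = 0.092). No gene of any kind passed for the interaction of strain and sex in limma, 0% in either direction, although 793 positive and 1745 negative genes had an unadjusted p under 0.05 and 2 negative genes passed with no filter. With all 48 mice in 1 fit, 215 positive and 533 negative genes passed and none of them was a member. The same fit called 3 members lower in males at baseline, Srebf2 (-0.52, adjusted p = 0.0027), Acly (-0.65, 0.034) and Elovl6 (-0.44, 0.034). Without mouse 2 of C3HM, 7 members were lower in males and 8 passed for the interaction, 1 of them positive, so both counts depend on which mice of that group enter. With mice 1 and 3 left out instead, the median log2 fold change of the members was -0.04 for sex, against -0.19 with them. For the interaction it was 0.04, against -0.27 with them. For sex by hyperoxia no member passed in limma, 7 having an unadjusted p under 0.05, where 0.0306% of 16321 genes were positive and 0.00613% negative. Fasn had the smallest adjusted p there (0.97, 95% interval 0.29 to 1.65, adjusted p = 0.18).

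ATG changed none of the members at an adjusted p under 0.05 in limma. In room air 0 of 30 passed, where 0.0123% of 16228 genes were higher and 0.00616% lower after ATG. The largest estimate was Fasn at 0.50 (95% interval 0.14 to 0.86, adjusted p = 0.63), and saline C3H lungs spread from 17.5 to 64.2 and ATG C3H lungs from 50.5 to 132. In hyperoxia 0 of 30 passed, where 3.89% of 15860 genes were higher and 1.58% lower. The members lay between -0.20 and 0.33 there, and no 95% interval reached beyond -0.74 or 0.67. For the interaction of ATG and air 0 of 30 passed, where 1.56% of 16994 genes were positive and 1.21% negative, and Fasn again came closest (-0.57, 95% interval -1.02 to -0.13, adjusted p = 0.14). At an unadjusted p under 0.05, 2 members passed in room air, 0 in hyperoxia and 2 for the interaction. Median ratio scaling moved the share of higher calls over all genes from 71.1% to 41% for ATG in hyperoxia and from 56.4% to 32.8% for the interaction. Of the neighbouring lists, Nr1h3, which encodes the sterol sensor LXR alpha, was higher after ATG in hyperoxia (0.47) and Mylip, which marks a lipoprotein receptor for decay, was lower (-0.35).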

How the data were processed

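Lung RNA of 48 mice, 3 in each of 16 groups, was sequenced, and the authors deposited 1 table of FPKM values per gene, made with GSNAP, SAMtools and Cufflinks on mm10 per the labels. The labels name a directional library and the study's methods another kit, so the use of strand is unclear and overlapping genes are uncertain. Values of Akap5, which has failed estimates in 7 mice, were left out. Testing was limited to genes that reached an FPKM of 1 in 3 or more fitted mice and used log2(FPKM + 1), so changes of low genes are understated, with limma 3.58.1 in R 4.3.3 (group means, moderated with a trend), Benjamini-Hochberg adjustment over all genes and a threshold of 0.05. Groups of 6 mice were also compared by exact two-sided permutation. The labels number mice separately, but p-values measure only the spread between these samples.

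The members and lists were chosen with earlier results of these data known. All members were accounted for, full statistics were given for at most 10 called members per comparison, and genes outside them were named from the lists only if past the threshold or as markers. The 3 comparisons within ATG mice, and the fits without mice 1 and 3 of C3HM, were chosen after seeing the data. Other pseudocounts (0.1), filters, scalings and left-out mice were tried. Sharing of 30-base sequences came from the GRCm38 transcripts. Scripts were tested on simulated data.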

Additional observations from a re-analysis of the deposited data

Results flagged for a closer look

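Of 76 groups of 6 mice tested (19 genes in 4 saline conditions), 3 held a mouse far from the others by Dixon's ratio, and chance gives about 1 in 20 groups. Mouse 21, a C57B male in hyperoxia after saline, had a Pmvk FPKM of 78.3, the next highest of its strain and condition being 38.6. The same mouse had a Scd1 FPKM of 385, the next highest being 236. Mouse 33, a C3H female in hyperoxia after saline, had a Fads1 FPKM of 27.6, the next lowest being 40.6.

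For 6 members the interaction of strain and hyperoxia passed the test, 3 in each set of mice. In saline mice the difference, C3H minus C57B, was 1.12 for Elovl1, 1.04 for Dhcr7 and 1.01 for Fasn on the log2 scale. In ATG mice it was -0.70 for Lss, -0.60 for Hsd17b7 and 0.64 for Elovl6. The call of Dhcr7 was lost under quantile normalization (0.78, adjusted p = 0.061). That of Fasn was lost under a pseudocount of 0.1, with a filter of 0.1 or none, under median ratio scaling and without the trend (adjusted p from 0.054 to 0.086). Its difference stood at 0.60 without mice 1 and 3 of C3HM. No member passed in both sets, and whether the 2 sets differ from each other was not tested.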

How the results depend on the processing

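No paired analysis was possible because each mouse carries a number of its own and no number is shared between groups. No member called in any comparison changed direction under an alternative. Only the larger moves in counts of members are listed next. Smaller ones also occurred, such as 6 higher and 10 lower for hyperoxia under quantile normalization. With no filter, hyperoxia in C57B gave 5 higher and 10 lower. Median ratio scaling gave 1 higher for strain at baseline and 5 lower for hyperoxia in C3H, and quantile normalization gave 5 lower for the latter. A pseudocount of 0.1 or no filter gave 1 lower for hyperoxia in C3H, and no filter gave 4 lower for strain at baseline. With all 48 mice in 1 fit, 10 were higher for hyperoxia in C3H, 8 positive for strain by hyperoxia, 3 lower for sex at baseline and 12 lower for strain at baseline. Without mice 1 and 3 of C3HM, the median log2 fold change of the members for strain at baseline was -0.14, against -0.27 with them. In ATG mice, 13 were lower for strain in room air, and strain by hyperoxia gave 1 positive and 2 negative. The cause was not tested.

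When single mice were left out, members rising in hyperoxia numbered 7 to 9 and those falling 8 to 9. In C3H 5 to 10 rose (10 without mouse 2 of C3HM) and 0 to 3 fell (0 without mouse 2, 8, 26 or 33). In C57B 4 to 6 rose (4 without mouse 14, 20, 21 or 39) and 8 to 12 fell (8 without mouse 19). Strain at baseline gave 0 to 1 higher and 3 to 13 lower (13 without mouse 2, 3 without mouse 26, 38 or 39). Strain by hyperoxia gave 1 to 9 positive (9 without mouse 2, 1 without mouse 31 or 45). Sex at baseline gave 0 to 7 lower, strain by sex 0 to 1 positive and 0 to 7 negative, sex by hyperoxia 0 to 4 positive and ATG by air 0 to 1 negative, each highest without mouse 2. ATG in hyperoxia gave 0 to 1 higher. Read depth is unknown, so the precision of low genes such as Elovl6 and Acacb could not be judged from counts.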

Other observations

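Members also varied together between mice of the same group. For 6 pairs of genes, the deviation of each of the 48 mice from the mean of its own group was correlated (Pearson r and Spearman rho), with 100000 permutations of mice within groups and Benjamini-Hochberg adjustment over the 6 pairs. Sqle and Cyp51 had r = 0.65 and rho = 0.65 (permutation p = 0.0001 and 0.00018, adjusted 0.0003 and 0.00042), and r was 0.63 without the 2 mice farthest from the median of Sqle. Sqle with Insig1 had r = 0.67 and rho = 0.64 (permutation p = 5e-05 and 0.00021, adjusted 0.0003 and 0.00042), and 0.62 without those mice. Sqle with Srebf2 had r = 0.65 and rho = 0.61 (permutation p = 0.00036 and 0.00061, adjusted 0.00072 and 0.000915), and 0.59 without them. Fasn and Srebf1 had r = 0.60 and rho = 0.64 (permutation p = 0.00059 and 6e-05, adjusted 0.000885 and 0.00036), and 0.56 without the 2 mice farthest from the median of Fasn. Fasn and Acly, the ATP citrate lyase that supplies cytosolic acetyl-CoA, had r = 0.64 and rho = 0.50 (permutation p = 0.00445 and 0.00413, adjusted 0.00534 and 0.00496), and r was 0.41 without those mice. Sqle and Fasn, from the 2 branches, did not pass, with r = 0.37 and rho = 0.31 (permutation p = 0.0675 and 0.0878, adjusted 0.0675 and 0.0878) and 0.34 without the 2 mice. Values of 1 lung share its scale, and after median ratio scaling the 6 values of r lay between 0.27 and 0.58. Whether the pairs differ from each other was not tested.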
